A study of Mus musculus with 4 samples.

Results

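The genes described here are 4 keratins of simple epithelia (Krt7, Krt8, Krt18 and Krt19), 4 claudins (Cldn3, Cldn4, Cldn6 and Cldn7) and the adhesion genes Epcam and Cdh1. They were taken by name, with earlier results of these data known, so counts of them beside all tested genes only describe this list. Every non-control probe whose RefSeq accession maps to 1 of these 10 genes was used. This gave 11 probes of 41174 on the array, Krt8 having 2, and all 10 genes were among the 21754 genes or transcripts that could be tested. D3 cells, an established line of mouse embryonic stem cells, received an siRNA that silences Pnpla6 (siNTE in the labels, after neuropathy target esterase, the lysophospholipase the gene encodes) with lipofectamine RNAiMAX. On each of 4 Agilent mouse arrays their RNA was hybridised beside that of control cells, in Cy3 and Cy5. Silenced and control cells alike differentiated in embryoid bodies, in medium lacking LIF, a cytokine that holds such cells undifferentiated. RNA was taken at 24 h and at 96 h, with 2 arrays per time. Replicate 1 of each time had control RNA in Cy5 and replicate 2 had silenced RNA in Cy5. What was given to the control cells is not stated in the labels, nor whether the 2 arrays of a time come from separate cultures. The spread between these arrays may therefore be technical. The p-values of the silencing effects do not measure all of it. A term for dye orientation takes up what differs between replicates 1 and 2 in the same way at both times. What remains has 1 residual degree of freedom, so these p-values rest mainly on the spread pooled across genes.

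Keratins are the intermediate filament proteins of epithelial cells. In simple epithelia, the single-layered sheets that also include the first epithelia of the embryo, type II keratins 7 and 8 pair with type I keratins 18 and 19 to form the filaments. Claudins are membrane proteins that form the strands of tight junctions and so set what passes between neighbouring cells. Cdh1 encodes E-cadherin, which joins neighbouring cells at adherens junctions, and Epcam encodes an adhesion molecule of epithelial and pluripotent cells; undifferentiated embryonic stem cells express both.

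Between 62.5% and 68.7% of the spots were well above background in each channel, and the number of arrays limits the precision. Pnpla6 itself was lower in silenced cells on both 24 h arrays, with log2 ratios of silenced to control of -0.73 and -1.002 (limma estimate -0.87, SE 0.06, adjusted p = 2.59e-11), and its ratios at 96 h were 0.12 and -0.11. The probes of Pou5f1, Sox2 and Nanog, which define undifferentiated embryonic stem cells, were well above background in 8 of 8 channels. With both arrays of a time turned to silenced over control, the ratios of all tested genes correlated at r = -0.41 between the 24 h arrays and 0.16 between the 96 h arrays, so much of the spread between the arrays of a time followed the dye or the replicate, which cannot be told apart here. The silencing effects below are therefore estimates with a term for dye orientation, and for the 10 genes at 96 h each array's own ratio is given beside them.

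RefSeq's promoter table (build GRCm38.p6) held 8 of the 10 genes, all but Krt19 and Cdh1. Krt8 and Krt18 are neighbours with 0 protein-coding genes between them, and so are Cldn3 and Cldn4. The 250 bases before the start of these 4 genes and of Cldn7 are shown because Krt18 and Cldn7 rose most over time, because Cldn7, Krt8 and Cldn3 differed most between silenced and control cells at 96 h, and because Cldn4 is the neighbour of Cldn3 that did not pass the test with it. Each is read along its gene, from 5′ to 3′, and capitals mark every match on either strand to the motifs searched: the E-box CAGGTG or CACCTG bound by the Snail and Zeb repressors, the GC box GGGCGG or CCGCCC of the Sp1 family, TGANTCA of AP-1 and GCCNNNGGC of AP-2.
Krt8 (chr15:102004343-102004592, minus strand): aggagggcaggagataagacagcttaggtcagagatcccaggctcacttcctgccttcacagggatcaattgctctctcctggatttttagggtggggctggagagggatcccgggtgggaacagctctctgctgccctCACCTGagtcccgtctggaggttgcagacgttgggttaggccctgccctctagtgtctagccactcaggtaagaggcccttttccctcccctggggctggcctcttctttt
Krt18 (chr15:102027966-102028215, plus strand): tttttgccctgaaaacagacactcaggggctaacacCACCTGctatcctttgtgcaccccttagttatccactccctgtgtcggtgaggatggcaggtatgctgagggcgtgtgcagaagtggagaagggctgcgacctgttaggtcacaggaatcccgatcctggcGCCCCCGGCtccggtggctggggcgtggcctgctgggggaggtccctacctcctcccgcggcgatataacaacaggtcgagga
Cldn7 (chr11:69965171-69965420, plus strand): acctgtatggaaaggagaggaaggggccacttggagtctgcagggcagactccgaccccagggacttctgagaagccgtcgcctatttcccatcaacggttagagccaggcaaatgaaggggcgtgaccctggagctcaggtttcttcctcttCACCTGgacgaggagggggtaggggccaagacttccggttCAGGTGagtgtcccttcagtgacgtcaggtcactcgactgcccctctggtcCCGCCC
Cldn3 (chr5:134985964-134986213, plus strand): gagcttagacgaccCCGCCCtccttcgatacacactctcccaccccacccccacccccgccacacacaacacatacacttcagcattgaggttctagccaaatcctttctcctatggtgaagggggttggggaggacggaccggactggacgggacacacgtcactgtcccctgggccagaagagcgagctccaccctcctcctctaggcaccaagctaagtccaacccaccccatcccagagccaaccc
Cldn4 (chr5:134946935-134947184, minus strand): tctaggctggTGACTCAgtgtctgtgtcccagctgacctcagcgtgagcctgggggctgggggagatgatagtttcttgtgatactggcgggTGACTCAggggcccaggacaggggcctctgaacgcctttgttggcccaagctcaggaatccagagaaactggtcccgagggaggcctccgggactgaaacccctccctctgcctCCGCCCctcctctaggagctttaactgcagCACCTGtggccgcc
The E-box was found in 7 of the 8 genes, all but Cldn3, against 17.2% of all 32851 promoters and 19.4% of 27025 genes with a promoter. In Krt8 it lies 111 bases before the start, in Krt18 214 and in Cldn4 14; Cldn7 has 2 starts in the table, and the one shown holds E-boxes at 97 and 57 while the other holds none. A GC box was present in 6 of the 8, in 32.7% of all promoters and in 35.4% of genes with a promoter. The AP-1 motif was present in Cldn4 alone, at 240 and 158 bases before the start, and in 6.75% of promoters and 7.82% of genes. The AP-2 motif was present in Krt18 and Krt7 and in 13.7% of promoters and 15.4% of genes. In Krt7, 1 AP-2 match overlaps a GC box. The letters TATAAA or TTTATA (12.4% of promoters, 14.3% of genes) and the Grainyhead-like motif AACCNGTT or AACNGGTT (1.79% and 2%) were found in 0 of the 8 genes. These matches describe letters and do not show binding.

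From 24 h to 96 h the epithelial genes rose in control cells, Krt18 and Cldn7 by far the most. In control cells 9 of the 10 rose (limma single-channel fit, adjusted p under 0.05; 36.4% of all tested genes changed and 19.5% rose) and 0 fell, with a median log2 change of 1.23 against 0.00 over all tested genes. All 10 had both 96 h control channels above both 24 h control channels, which held for 36.9% of all tested genes. In silenced cells 8 of the 10 rose (37.2% of all tested genes changed and 19.6% rose), with a median of 1.25. These counts include Krt7, which passed the filter on dim probes only through its 96 h channels. Its rise was favoured by that choice and adds no support to the counts. In RNA of whole cultures, fewer cells of a type and less RNA per cell cannot be told apart. No array held RNA of both times, so each change from 24 h to 96 h compares channels of different arrays after normalization between arrays. The fits for the 2 kinds of cell use the same arrays, so their values are given side by side and not as separate evidence.

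**Figure D1:**
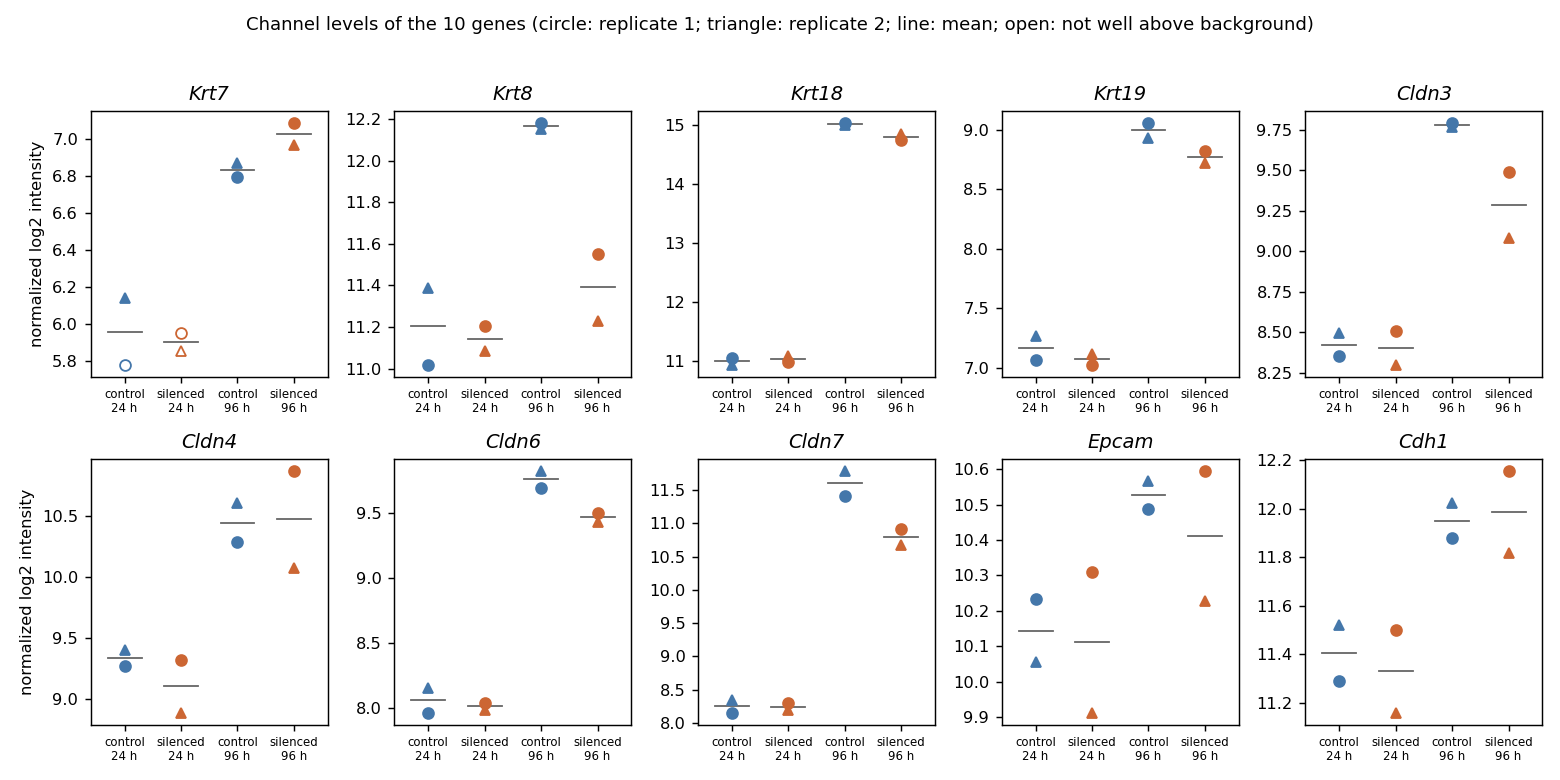
Normalized log2 intensity of the 10 genes in each of the 8 channels, 1 panel per gene with its own axis, by RNA group (control in blue, silenced in orange; circle replicate 1, triangle replicate 2, line the mean, open symbol not well above background). Krt18 moves from about 11 to about 15 in both kinds of cell, and at 96 h the silenced channels lie below the control channels for Krt8, Krt18, Krt19, Cldn3, Cldn6 and Cldn7.

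Among the keratins, Krt18, the type I partner of keratin 8, had normalized log2 intensities of 11.05 and 10.94 in control cells at 24 h (replicates 1 and 2) and 15.04 and 15.01 at 96 h. In silenced cells its levels were 10.98 and 11.08 at 24 h and 14.74 and 14.86 at 96 h. The 24 h levels overlap between silenced and control cells, and all 96 h levels lie far above them. The rise was 16.3-fold in control cells (log2 4.03, SE 0.09, limma adjusted p = 2.66e-06) and 13.7-fold in silenced cells (log2 3.77, SE 0.09, adjusted p = 2.91e-06). In both fits this was the rise of rank 3 of the 21754 genes or transcripts tested.

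Krt8, the type II partner of keratin 18, moved less over time. Its tested probe read 11.02 and 11.39 in control cells at 24 h and 12.18 and 12.15 at 96 h, and in silenced cells 11.21 and 11.08 at 24 h and 11.55 and 11.23 at 96 h. The 96 h control channels stand above the other 6, while the lower of the 96 h silenced channels is barely above the 24 h silenced ones and lies within the 24 h control range. Control cells rose 1.95-fold (log2 0.96, SE 0.13, limma adjusted p = 0.00106), while the change in silenced cells was 0.25 (SE 0.13, adjusted p = 0.179). Without replicate 2 at 24 h the change in silenced cells was 0.26 (limma adjusted p = 0.0413) and without replicate 2 at 96 h it was 0.28 (adjusted p = 0.0406), both past the threshold, with a range of 0.0406 to 0.224 over the alternatives. The second Krt8 probe gave 0.87 in control cells and 0.07 in silenced cells.

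Krt19, a type I keratin, read 7.07 and 7.27 in control cells at 24 h and 9.06 and 8.93 at 96 h, and in silenced cells 7.03 and 7.11 at 24 h and 8.82 and 8.73 at 96 h. It rose 3.55-fold in control cells (log2 1.83, SE 0.11) and 3.26-fold in silenced cells (log2 1.70, SE 0.11), with limma adjusted p of 2.99e-05 and 4.31e-05. Krt7, a type II keratin, was near background at 24 h: it was well above background in 1 of 4 channels at 24 h and in all 4 at 96 h, while the other 9 genes were so in 8 of 8 channels. Its levels in control cells were 5.78 and 6.14 at 24 h and 6.80 and 6.87 at 96 h, and in silenced cells 5.95 and 5.85 at 24 h, neither well above background, and 7.09 and 6.97 at 96 h. Krt7 rose in control cells by 0.88 on the log2 scale (SE 0.14, limma adjusted p = 0.00218), a size that depends on the normexp offset: with 16 in place of 50 it was 1.53, and 1.88 in silenced cells. In silenced cells its rise was at least 2.07-fold, taking as the 24 h level the higher, on each array, of its own signal and the lowest signal that was well above background (fitted log2 1.13, SE 0.14, limma adjusted p = 0.000672).

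All 4 claudins rose in both kinds of cell. Cldn7 had levels of 8.15 and 8.34 in control cells at 24 h and 11.41 and 11.79 at 96 h, and in silenced cells 8.30 and 8.19 at 24 h and 10.92 and 10.67 at 96 h. At 24 h the silenced channels lie between the control channels, and at 96 h both lie below them. The rise was 10.2-fold in control cells (log2 3.35, SE 0.16, limma adjusted p = 1.35e-05, rank 8 of all rises) and 5.86-fold in silenced cells (log2 2.55, SE 0.16, adjusted p = 3.76e-05, rank 30).

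Cldn6, a claudin of embryonic epithelia, read 7.96 and 8.15 in control cells at 24 h and 9.69 and 9.82 at 96 h, and in silenced cells 8.04 and 7.98 at 24 h and 9.50 and 9.43 at 96 h. It rose 3.25-fold in control cells (log2 1.70, SE 0.09) and 2.74-fold in silenced cells (log2 1.46, SE 0.09), with limma adjusted p of 1.83e-05 and 3.33e-05. Cldn3 read 8.35 and 8.49 in control cells at 24 h and 9.79 and 9.77 at 96 h, and in silenced cells 8.51 and 8.30 at 24 h and 9.49 and 9.08 at 96 h. The 96 h control channels of Cldn3 nearly coincide, whereas its silenced channels at 96 h are spread and both lower. Its rise was 2.56-fold in control cells (log2 1.36, SE 0.10) and 1.84-fold in silenced cells (log2 0.88, SE 0.10), with limma adjusted p of 7.44e-05 and 0.000546.

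Cldn4, which with Cldn3 is known as a receptor of Clostridium perfringens enterotoxin, had the largest SE of the 10 genes. Its levels were 9.27 and 9.40 in control cells at 24 h and 10.29 and 10.60 at 96 h, and in silenced cells 9.32 and 8.89 at 24 h and 10.87 and 10.08 at 96 h. The silenced channels at 96 h lie on either side of the control channels. The rise was 2.16-fold in control cells (log2 1.11, SE 0.25, limma adjusted p = 0.0102) and 2.59-fold in silenced cells (log2 1.37, SE 0.25, adjusted p = 0.00392).

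In control cells the adhesion genes moved least, while in silenced cells Krt8 did. Cdh1 read 11.29 and 11.52 in control cells at 24 h and 11.88 and 12.02 at 96 h, and in silenced cells 11.50 and 11.16 at 24 h and 12.16 and 11.82 at 96 h, a rise of 1.46-fold in control cells (log2 0.54, SE 0.10, limma adjusted p = 0.00366) and 1.58-fold in silenced cells (log2 0.66, SE 0.10, adjusted p = 0.00148). Epcam read 10.23 and 10.06 in control cells at 24 h and 10.49 and 10.57 at 96 h, and in silenced cells 10.31 and 9.91 at 24 h and 10.60 and 10.23 at 96 h. Its silenced channels overlap between the times and its control channels do not. The Epcam changes of 0.38 in control cells (SE 0.15, limma adjusted p = 0.083) and 0.30 in silenced cells (SE 0.15, adjusted p = 0.159) did not pass the test, with 95% intervals of 0.04 to 0.73 and -0.05 to 0.65. Without replicate 1 at 24 h the control value was 0.58 (limma adjusted p = 0.000378, where the alternatives ran up to 0.111) and passed, as it did without either 96 h array; the silenced value passed without replicate 1 at 24 h (0.39) and without replicate 2 at 96 h (0.43).

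**Figure D2:**
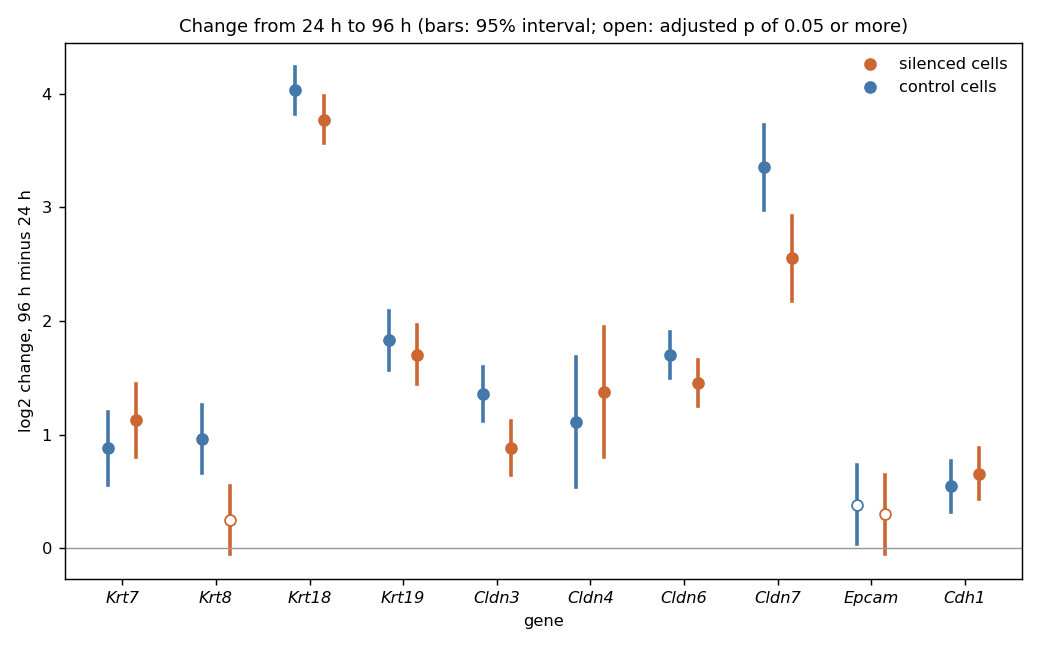
Log2 change from 24 h to 96 h for each gene in control cells (blue) and silenced cells (orange), with 95% intervals from the single-channel fit; open circles did not pass the test. Krt18 and Cldn7 stand highest, Epcam lowest in control cells, and Krt8 has a filled circle in control cells and an open one in silenced cells.

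At 96 h, Cldn7 and Krt8 were the most reduced of the 10 genes in silenced cells, 1.75-fold and 1.71-fold below control cells. With the dye term in the limma fit 7 of the 10 passed, 6 lower and 1 higher, where 13.4% of all tested genes passed, 6.8% lower and 6.61% higher. The median log2 ratio of the 10 was -0.22, against 0.00 over all tested genes. The silenced and control channels did not overlap for 7 of the 10, which held for 37% of all tested genes. Both arrays gave the same sign for the same 7 genes, and for 51.3% of all tested genes. The calls depend on the dye term: without it, 0 of the 10 passed, where 0.487% of all tested genes did. An unadjusted limma p under 0.05 then held for 6 of the 10 and for 2114 of all 21754. With the authors' own ratios 0 of the 10 and 0 of all tested genes passed. There, 5 of the 10 and 3846 of all 21754 had an unadjusted limma p under 0.05. Leaving out 1 array, which also removes the dye term, left 1 of the 10 without either 24 h array (Krt8), 1 without replicate 1 at 96 h (Cldn7) and 0 without replicate 2 at 96 h, the array that alone lay on a second slide.

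Krt8 had log2 ratios of silenced to control of -0.63 and -0.92 on replicates 1 and 2 at 96 h (estimate -0.78, SE 0.06, 1.71-fold lower, limma adjusted p = 2.00e-11). Its second probe, read on the same 2 arrays, gave -0.83 and -0.78. Both probes lie far below 0 on both arrays, but they are not separate replicates. Without the dye term the limma adjusted p of Krt8 was 0.0865, and over all 11 alternatives it ran from 2.33e-16 to 0.387. Krt18 was lower at -0.30 and -0.15 (estimate -0.22, SE 0.06, adjusted p = 0.0128) and Krt19 at -0.23 and -0.21 (estimate -0.22, SE 0.06, adjusted p = 0.0135), each 1.17-fold. Krt7 went the other way, with 0.29 and 0.09 (estimate 0.19, SE 0.06, 1.14-fold higher, limma adjusted p = 0.0381). Krt7 no longer passed in 9 of the 11 alternatives, among them averaging the probes of each gene (limma adjusted p = 0.0634). Krt18 and Krt19 each no longer passed in 8 of the 11. Of the 4 keratins, 3 were lower and 1 higher, with Krt8 furthest from 0.

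Cldn7 had log2 ratios of -0.49 and -1.12 at 96 h (estimate -0.80, SE 0.07, 1.75-fold lower, limma adjusted p = 1.88e-11), and without the dye term its adjusted p was 0.113, in a range of 8.90e-17 to 0.431 over the alternatives. Both arrays lie below 0, but replicate 2, on the second slide, reads much lower than replicate 1. Cldn3 followed with -0.30 and -0.69 (estimate -0.49, SE 0.06, 1.41-fold lower, limma adjusted p = 3.05e-07), and Cldn6 with -0.19 and -0.39 (estimate -0.29, SE 0.06, 1.22-fold lower, adjusted p = 0.00104). Cldn3 no longer passed in 6 of the 11 alternatives and Cldn6 in 8. Cldn4 had ratios of 0.58 and -0.53, which cancel (estimate 0.03, SE 0.07, 95% interval -0.11 to 0.17, limma adjusted p = 0.851). Both arrays lie outside this interval, and without the dye term the SE was 0.25 in place of 0.07.

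The adhesion genes did not pass at 96 h. Epcam had ratios of 0.11 and -0.34 (estimate -0.12, 95% interval -0.24 to 0.01, limma adjusted p = 0.267) and Cdh1 0.28 and -0.20 (estimate 0.04, 95% interval -0.09 to 0.16, adjusted p = 0.78). Both genes, and Cldn4, read higher in silenced cells where silenced RNA was in Cy3 and lower where it was in Cy5. Without the dye term the SE was 0.12 in place of 0.06 for Epcam and 0.16 in place of 0.06 for Cdh1.

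**Figure D3:**
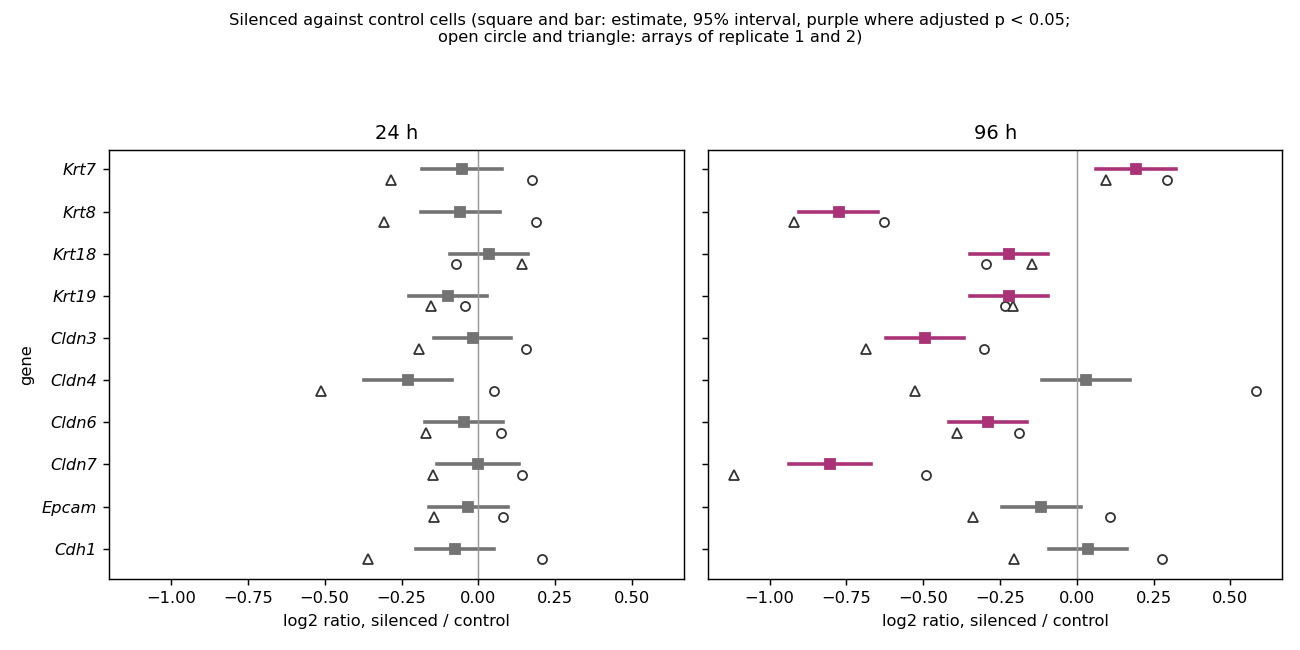
Log2 ratio of silenced to control cells for each gene at 24 h (left) and 96 h (right): squares and bars are limma estimates with 95% intervals, purple where adjusted p was under 0.05, and open circles and triangles are the arrays of replicates 1 and 2. At 96 h both arrays lie left of 0 for Krt8, Krt18, Krt19, Cldn3, Cldn6 and Cldn7; at 24 h the arrays fall on opposite sides of 0 for all genes but Krt19.

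At 24 h, when Pnpla6 itself was reduced, 0 of the 10 genes passed in the limma fit (0.372% of all tested genes passed, 0.234% higher and 0.138% lower). An unadjusted limma p under 0.05 held for 1 of the 10 and for 1669 of all 21754 tested. That gene was Cldn4, with ratios of 0.05 and -0.51 (estimate -0.23, SE 0.07, limma adjusted p = 0.193). The other estimates ran from -0.10 for Krt19 to 0.03 for Krt18, and the silenced and control channels overlapped for all 10 (they did not for 18.9% of all tested genes). Replicate 1 was above 0 and replicate 2 below 0 for 8 of the 10 and for 31.2% of all tested genes, and Krt19 alone had 1 sign, at -0.04 and -0.15, as did 37.9% of all tested genes. The 24 h ratios of Krt8 were 0.19 and -0.31, of Cldn7 0.14 and -0.15, and of Cldn3 0.16 and -0.19. With the dye term the 95% interval of the 24 h effect was -0.19 to 0.07 for Krt8 and -0.13 to 0.13 for Cldn7; without it the SE was 0.13 in place of 0.06 for Krt8 and 0.15 in place of 0.07 for Cldn7, and with 1 array left out the Krt8 estimate ran from -0.31 to 0.19.

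The silencing effect at 96 h differed from that at 24 h for 3 of the 10 genes, all more negative at 96 h (limma contrast; 6.92% of all tested genes passed, 4.1% more negative and 2.83% more positive). These were Cldn7 (difference -0.80, SE 0.09, adjusted p = 1.24e-07), Krt8 (-0.72, SE 0.09, adjusted p = 6.13e-07) and Cldn3 (-0.47, SE 0.09, adjusted p = 0.000346). Without the dye term or with the authors' ratios, 0 of the 10 passed, but so did 0 of all 21754 genes tested. Krt8, Cldn7 and Cldn3 kept a negative difference in both and with any 1 array left out. Without the dye term the estimates cannot change, so their sign was fixed there. With a normexp offset of 16 Cldn3 no longer passed (limma adjusted p = 0.0706; 0.000133 to 0.999 over the alternatives). For Krt18 the difference was -0.26 (limma adjusted p = 0.0765), for Cldn6 -0.24 (0.0979), for Krt7 0.25 (0.101) and for Cldn4 0.26 (0.125).

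Over the 8 channels, the order of levels was the same for Krt18, Krt19, Cldn3, Cldn6 and Cldn7: control cells at 96 h highest, silenced cells at 96 h next without overlap, and both kinds of 24 h cell lowest and overlapping. Krt8 had the same order, but its silenced cells at 96 h overlapped the control cells at 24 h. For Krt7 the silenced cells at 96 h came first and the control cells at 96 h next. For Cldn4, Epcam and Cdh1 the 96 h groups overlapped each other. Each gene's profile correlated with the mean profile of the 10, which includes it, at Pearson r between 0.806 (Krt8) and 0.997 (Cldn6); the 8 channels share 4 arrays and these values are a description only. Outside the 10, and among 2483 genes that ranged over at least 1 log2 unit, the profiles most like their mean were those of BC024074 (r = 0.998), Ap1m2, the clathrin adaptor subunit of epithelial sorting (0.998), the Wnt ligand gene Wnt9a (0.998), Card19 (0.998), the peptide transporter gene Slc15a2 (0.997) and Dtx4 (0.997). All 6 rose in control cells and all 6 were lower in silenced cells at 96 h, from -0.19 for Card19 (limma adjusted p = 0.0323, although its arrays read 0.11 and -0.50) to -0.33 for Dtx4 (adjusted p = 0.000216); these values come from the channels by which the genes were chosen.

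Of 35 other keratin genes on the array 13 could be tested, and 1 passed at 96 h: Krt10, a keratin of stratified epidermis, was higher in silenced cells (0.25 and 0.13, estimate 0.19, limma adjusted p = 0.0332). In control cells from 24 h to 96 h, 3 of the 13 rose, Krt13 by 0.60, Krt20 by 0.58 and Krt16 by 0.40, and 1 fell, the basal keratin gene Krt17, by 0.89. Of 16 other claudins 7 could be tested: 0 passed at 96 h in the limma fit, with the smallest p for Cldn12 (-0.14, adjusted p = 0.153) and Cldn5 (0.10, adjusted p = 0.317), and in the control time course 1 rose, Cldn12 by 0.41. Of these genes, 16 of the 35 keratins and 7 of the 16 claudins were never well above background.

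The proteins that work with claudins and cadherins showed a mixed picture. Of 19 tight junction partners tested, 12 rose and 2 fell in control cells over time, and 2 were higher and 6 lower in silenced cells at 96 h. The scaffold gene Amot rose by 2.12 in control cells and was lower in silenced cells at -0.64 and -0.63 (estimate -0.64, limma adjusted p = 1.33e-09). Marveld3, a membrane protein of the tight junction, rose by 1.43 and was lower at 96 h at -0.14 and -0.52 (estimate -0.33, adjusted p = 0.000184). The junctional adhesion molecules split, Jam3 being lower (estimate -0.31, limma adjusted p = 0.000422) and Jam2 higher (estimate 0.28, adjusted p = 0.00146). Tjp3, which encodes the scaffold ZO-3, rose by 1.63 in control cells and Patj by 1.01, with silencing ratios of -0.02 and -0.12 that did not pass.

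Of 13 adherens junction genes and other cadherins, 5 rose and 2 fell over time in control cells, Cdh3 rising by 0.78, Afdn by 0.56, and Jup (plakoglobin) and Nectin1 falling by 0.99 and 0.92. At 96 h, 1 was lower in silenced cells, Nectin2 (estimate -0.21, limma adjusted p = 0.0216), and 1 higher, Jup (0.21, adjusted p = 0.026). Of 11 genes of desmosomes and keratin linkers, 5 rose and 2 fell over time, among them Ppl (periplakin) up by 0.86, Pkp2 up by 0.77 and Dsg2 down, a fall by 0.61 on the log2 scale. In silenced cells at 96 h, 1 of the 11 was lower, the desmosomal membrane protein gene Perp, at -0.40 and -0.42 (estimate -0.41, limma adjusted p = 9.30e-06).

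Epithelial regulators and proteases gave 14 tested genes, of which 8 rose and 3 fell over time in control cells and 5 were lower and 0 higher in silenced cells at 96 h. Tfap2c, which encodes the transcription factor AP-2 gamma, rose by 3.84 in control cells and 3.95 in silenced cells, and its silencing ratio was 0.09 (limma adjusted p = 0.408). Klf5 fell by 1.66. The 5 that were lower at 96 h were the splicing regulator gene Esrp1 (-0.36 and -0.46, estimate -0.41, limma adjusted p = 9.34e-06), the small GTPase gene Rab25 (estimate -0.31, adjusted p = 0.000382), the transcription factor gene Ovol2 (-0.24, adjusted p = 0.0066), Ap1m2 (-0.22, adjusted p = 0.0177) and the membrane protease gene Prss8 (-0.21, adjusted p = 0.0169). All 5 had also risen in control cells, Esrp1 by 0.98, Rab25 by 1.17, Ovol2 by 0.31, Ap1m2 by 1.07 and Prss8 by 1.47.

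**Figure D4:**
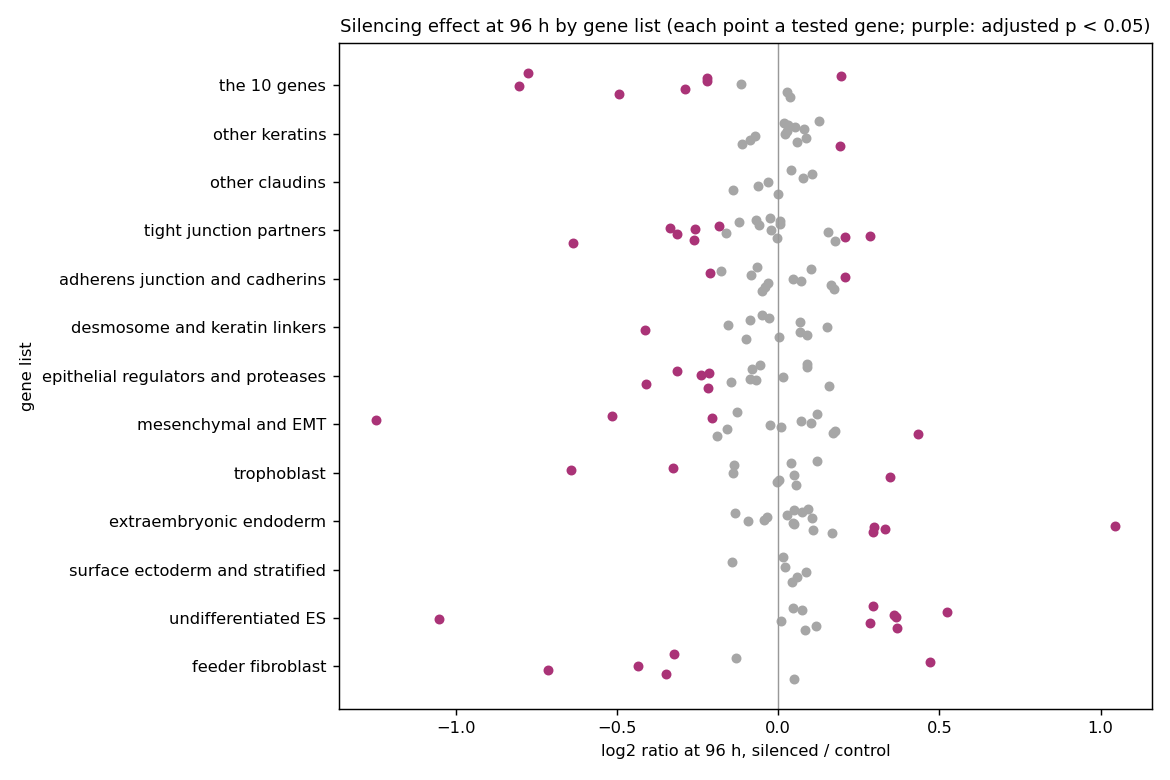
Limma log2 ratio of silenced to control cells at 96 h for each tested gene of 13 sets, 1 row per set and 1 point per gene, purple where adjusted p was under 0.05. The 10 genes spread from -0.80 to 0.19; points of other keratins and other claudins lie close to 0, and all 5 purple points among epithelial regulators lie left of it.

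Markers of other cell types moved as well at 96 h. Of 14 mesenchymal genes 3 were lower in silenced cells, Tagln (-1.09 and -1.41, limma adjusted p = 8.23e-17), Vim (-0.54 and -0.49, adjusted p = 1.64e-07) and Twist1 (-0.23 and -0.19, adjusted p = 0.0248), and 1 higher, Fn1 (0.52 and 0.35, adjusted p = 1.44e-05). The summed linear level of the 14 was 10321 to 10437 in silenced and 11953 to 12160 in control channels at 96 h, and Foxc2 was never well above background. In control cells Vim fell by 2.61 and Tagln rose by 2.55 over time. Of 7 fibroblast genes tested 4 were lower at 96 h, among them Cxcl12 (estimate -0.71), Dcn (-0.44) and Col1a2 (-0.35), and Fbln2 was higher (0.47); their summed level was 2828 to 2892 in silenced and 3071 to 3374 in control channels, and Col3a1, Lum and Postn were never well above background.

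Of 17 genes of the extraembryonic endoderm 4 were higher in silenced cells and 0 lower, Cubn, the visceral endoderm receptor gene, leading with 0.82 and 1.27 (estimate 1.05, limma adjusted p = 1.76e-14), followed by the basement membrane genes Col4a1 (0.33) and Col4a2 (0.30) and by Amn (0.29), the partner of Cubn. Their summed level at 96 h, 94597 to 97883 in silenced and 80073 to 99069 in control channels, overlaps between the groups, and Apoa1, Thbd and Ttr were never well above background. Of 11 trophoblast genes 2 were lower, Peg10 (-0.64) and Phlda2 (-0.33), and 1 higher, Esx1 (0.35), with summed levels of 3208 to 3298 in silenced and 3225 to 3593 in control channels; Elf5, Gata3, Plac1 and Tpbpa were never well above background. Of 6 genes of surface ectoderm and stratified epithelium 0 passed at 96 h in the limma fit, with summed levels of 7635 to 8554 in silenced and 7758 to 8209 in control channels, and Trp63, Dlx3 and Ivl were never well above background.

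Of 12 genes of undifferentiated embryonic stem cells 6 were higher in silenced cells at 96 h, among them Tcl1 (0.52), Esrrb (0.37), Sox2 (0.36) and Zfp42 (0.30), and 1 lower, Pou5f1, whose arrays read 0.01 and -2.11. Their summed level was 127520 to 136907 in silenced and 119849 to 122781 in control channels, without overlap, and all 12 were well above background on some array. The part of these marker genes in the lower keratin and claudin levels was not tested.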

How the data were processed

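Mouse D3 cells were measured on 4 two-colour Agilent arrays, 2 per time, with dyes exchanged. Per the file headers, the authors extracted the scans with Agilent Feature Extraction (10.7.1.1), and the submitters' processing notes also name limma. The deposited scanner files hold spot and background signals as intensity in arbitrary units, the log10 ratio of the Cy5 to the Cy3 signal, and for each spot a p-value that rests on 1 array and entered no test here. In the authors' series table the log10 ratios are those of silenced over control RNA, equal to the scanner log ratios after turning the sign where control RNA was in Cy5 (within 4.97e-06).

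Median signals were corrected with normexp (offset 50) and normalized by loess within arrays, with R 4.3.3 and limma 3.58.1; of 45018 spots, 1639 controls had weight 0 and 1 non-uniform spot was left out. Replicate spots were averaged. Of 41174 probes, 28082 were well above background on both arrays of at least 1 RNA group, and the brightest probe of each gene was tested. Symbols came from RefSeq accessions, which named 24375 probes. Limma fitted the log2 ratios by time with a dye term, which leaves 1 residual degree of freedom, so that the p-values rest mainly on the spread pooled across genes (prior degrees of freedom 33.2). After Aquantile, lmscFit was run on the single channels, with an intraspot correlation of 0.896. Tests were two-sided, with Benjamini-Hochberg adjustment over the 21754 genes or transcripts tested and a threshold of 0.05.

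Replicate number and dye orientation coincide, so the dye term is also the replicate block; the deviations of same-numbered arrays correlated at 0.677 between the times. The first slide held 3 arrays and the second replicate 2 at 96 h, so the fit without that array is also the fit within the first slide. The steps were tested on simulated data. These data had the same dye bias at both times, as the fit assumes, so they cannot show whether the dye term is right for these arrays. The 10 genes and the gene lists were chosen with earlier results of these data known. From each list the text names up to 4 genes that passed at 96 h and up to 4 that passed in the control time course, by size, or the 2 smallest p where none passed at 96 h, plus the 6 genes with the most similar profile; not all are printed. Promoter sequences are from RefSeq's table; array coordinates, on another build, were not used.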

Additional observations from a re-analysis of the deposited data

Results flagged for a closer look

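The silencing effect differed between the times for 3 of the 10 genes by limma's contrast of 96 h against 24 h, where 6.92% of all tested genes passed, 4.1% more negative. The difference was -0.72 log2 units for Krt8, -0.47 for Cldn3 and -0.80 for Cldn7, each from a 24 h estimate near 0 (-0.06, -0.02 and -0.00) to a lower 96 h level in silenced cells. For each of these genes the 24 h arrays lay on opposite sides of 0. Pnpla6 was reduced at 24 h (log2 -0.87) and not at 96 h (0.01). These calls depend on the dye term: without it the limma adjusted p-values were 0.509 for Krt8, 0.755 for Cldn3 and 0.525 for Cldn7. Of all 21754 genes tested, 0 passed without it. Over all 11 alternatives they ran from 8.31e-09, 0.000133 and 3.34e-10 to 0.999, with negative differences throughout.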

How the results depend on the processing

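The number of the 10 genes that passed at 96 h, 7 with the chosen processing, was 3 with a normexp offset of 16 and 3 with median centring in place of loess (Krt8, Cldn7 and Cldn3 in both), 0 with the authors' ratios, 0 with no replicate block, and 0 to 1 with 1 array left out. With no filter or every probe tested it stayed at 7 and with averaged probes it was 6. The 7 called effects kept their sign under all 11 alternatives, but for most of these the sign was fixed beforehand. With no filter, every probe tested, no replicate block or a 24 h array left out, the 96 h estimate cannot change. Leaving out a 96 h array gives the ratio of the other array, and both arrays had the same sign for these 7. The difference between the times is likewise unchanged with no filter, every probe tested or no replicate block. For the difference between the times, 3 genes passed; 2 did with an offset of 16, which lost Cldn3, and 0 did with the authors' ratios, with no replicate block, or with any 1 array left out. At 24 h, 0 passed under every alternative. In the control time course the same 9 passed, and in silenced cells the same 8, under every alternative that kept all arrays. The share of all genes tested that passed moved with the setting. In control cells it ran from 23.9% with no filter to 44.8% with no replicate block (36.4% with the chosen processing). In silenced cells it ran from 24.5% to 45.9% under the same settings (37.2%). With 1 array left out, its time rests on the other array alone, so calls from those fits are not counted. In all 10 alternatives of each time course, the estimates of the 10 genes stayed above 0.

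Over all tested genes, the count at 96 h was 2918, falling to 1798 under median centring (1126 higher, 672 lower), 1016 at offset 16, 0 with the authors' ratios (3846 at an unadjusted p under 0.05), 106 with no replicate block (15 higher, 91 lower) and 29 to 114 with 1 array left out. Estimates that did not pass changed sign in up to 11 of 50 values when 1 array was left out (replicate 2 at 24 h). For the difference between the times the count over all tested genes was 1506, with 271 at offset 16 and 0 with the authors' ratios or with no replicate block. The fits without 1 array used the intraspot correlation of all arrays. Precision is limited by 2 arrays per time, by the 1 residual degree of freedom, and for Krt7 by its background at 24 h.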
